A study of Homo sapiens with 4 samples.

Results

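A set of 10 genes that build or brace contractile actin bundles was examined in cells labelled AGS, a human gastric adenocarcinoma line long kept in culture, after treatment with recombinant human fibroblast growth factor 2 (FGF2). The genes are ACTA2, TAGLN, MYL9, CNN1, CNN2, TPM1, TPM2, TPM4, VCL and ACTN1, and they were found by their symbols among the 51103 genes listed for each library. The FGF2 group holds 2 libraries of polyadenylated RNA from cells given FGF2 at 20 ng/mL and harvested after 24 h, and the other group, called NC, holds 2 libraries. The labels do not spell out NC, and their treatment text also describes FGF2, so it is not clear from them what those cells received. The epithelial genes EPCAM and CDH1 were near 0 in all 4 libraries while the fibroblast genes COL1A1 and PDGFRB were expressed. The low EPCAM and the expressed fibroblast genes go against the label, but the epithelial keratin genes KRT8, KRT18 and KRT19 were expressed. Of 8 listed fibroblast genes, 5 did not reach the count minimum given below. The identity of the line was not tested. Both groups are labelled as the same unmodified line grown in DMEM with fetal bovine serum, and nothing says that the libraries of a group came from separate cultures. Of the 10 genes, 9 reached the minimum used for calls, a mean of 50 counts per read set, and ACTA2 did not.

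Contractile bundles, or stress fibres, are made of actin filaments that myosin II pulls on, that tropomyosin coats, that alpha-actinin crosslinks and that vinculin ties to integrin adhesions. Many of their genes are known targets of serum response factor (SRF), which binds a DNA element called the CArG box together with cofactors of the MRTF family that are held back by unpolymerised actin. A second class of SRF cofactors, the ternary complex factors of the ETS family, is activated by ERK, the kinase that FGF receptors switch on. ACTA2, TAGLN, CNN1 and MYL9 are best known from smooth muscle and myofibroblasts, while the vinculin and alpha-actinin genes are active in most adherent cells.

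FGF2 libraries 1 and 2 summed to 13790335 and 27598608 counts, NC libraries 1 and 2 to 14073340 and 27325697. Library 1 had the higher count at 2 of 22043 genes in the FGF2 group and at 2 of 22485 in the NC group, where a binomial split of separate reads gives 1192 and 1214. Library 2 of each group thus reads as library 1 with further reads added, and each group was counted as 1 sample with no replicate check and no p-value. Fold changes are those of library 2, with counting intervals at 95%, and they were also computed from 2 read sets that share no reads, library 1 and library 2 less library 1. The intervals hold counting error alone and understate the error, since the chi-square per gene between the read sets was 2.70 in the FGF2 group and 2.62 in the NC group at genes that averaged 10 to 1000 counts, where sampling alone gives about 1. The call rule asked that each FGF2 read set exceed, or lie under, each NC read set by 1.2-fold or more.

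Of the 9 genes measured, 4 were lower in the FGF2 sample, 0 were higher and 5 were neither. The lower ones were the calponin gene CNN1, the myosin light chain gene MYL9, the transgelin gene TAGLN and the tropomyosin gene TPM1. Among all 11000 genes that reached the count minimum, 13.7% were called lower and 12.2% higher by the same rule. All 4 were also lower by at least 1.5-fold, a bound at which 5.36% of the 11000 genes were lower and 3.06% higher. The median log2 fold change of the 9 genes was -0.31, beside 0.02 for all 11000 genes, and it was -0.26 in library 1 and -0.38 in the remaining reads. Scaled by the total alone, the rule also took CNN2, which made 5 of 9 lower, while 17.6% of all tested genes were then lower and 8.47% higher. Fewer cells with a transcript and less of it per cell cannot be told apart in bulk RNA.

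CNN1 (ENSG00000130176, chromosome 19, 11538717 to 11550323) encodes calponin 1, an actin-binding protein of differentiated smooth muscle that restrains myosin. It stood at 2.08 and 2.54 FPKM (a level per exon length and per library total) in the FGF2 libraries, against 9.62 and 9.51 FPKM in the NC libraries. Since library 2 of each group reads as holding library 1, the levels of a group are not replicates. The log2 fold change was -1.82 (-2.06 to -1.60), with -2.12 in library 1 and -1.57 in the remaining reads, on 202 counts in FGF2 library 2 and 750 in NC library 2. Of the 11000 tested genes, 54 had a fold change as low or lower, CNN1 included.

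TAGLN (ENSG00000149591, chromosome 11, 117199321 to 117204782) encodes transgelin, a small actin-bundling relative of calponin. It stood at 12.6 and 11.8 FPKM in the FGF2 libraries, against 23.8 and 24.9 FPKM in the NC libraries. The log2 fold change was -1.001 (-1.10 to -0.90), with -0.84 in library 1 and -1.18 in the remaining reads, and 287 tested genes were as low or lower. Of the 50-base words in TAGLN transcripts, 9.63% also lie in PCSK7 on the opposite strand, which had 1168 counts in FGF2 library 2 and 1290 in NC library 2, and the library kit does not mark strand.

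CNN2 (ENSG00000064666, chromosome 19, 1026581 to 1039068) encodes calponin 2, the form found in many cell types outside muscle. It stood at 94.9 and 93.3 FPKM in the FGF2 libraries and 120.3 and 123 FPKM in the NC libraries. The log2 fold change of -0.31 (-0.35 to -0.28) had the direction of CNN1 but was much smaller. At -0.26 in library 1 it came just short of the 1.2-fold bound, and it was -0.38 in the remaining reads.

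**Figure D1:**
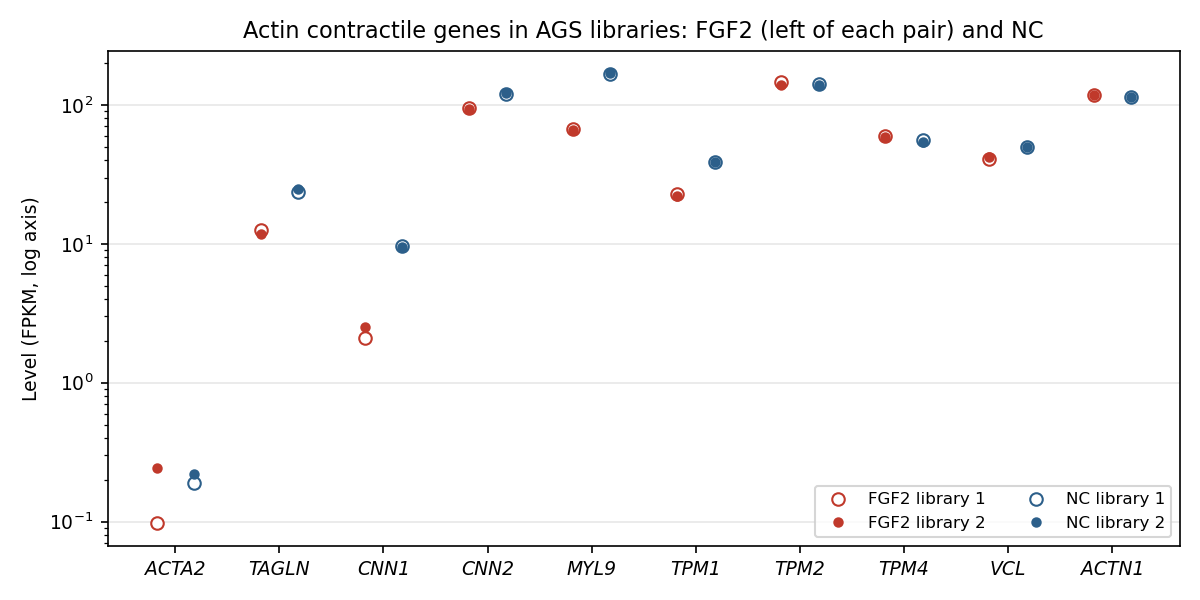
Level of each of the 10 genes in FPKM (log axis) in the FGF2 libraries (red, left of each pair) and the NC libraries (blue, right), with library 1 as open and library 2 as filled circles. CNN1, TAGLN, MYL9 and TPM1 sit lower in both FGF2 libraries, TPM2, TPM4 and ACTN1 are nearly level, and ACTA2 lies below 1 FPKM in all 4 libraries.

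MYL9 (ENSG00000101335, chromosome 20, 36541484 to 36551447) encodes a regulatory light chain of myosin II, whose phosphorylation starts contraction. It had the largest difference in FPKM of the set, at 67.6 and 65.9 in the FGF2 libraries, against 166 and 169 in the NC libraries. In NC library 2 only 1.37% of tested genes stood at or above its level. The log2 fold change was -1.28 (-1.32 to -1.23), with -1.21 and -1.35 from the separate read sets, and 154 tested genes were as low or lower. No 50-base word of its transcripts occurs in another listed gene.

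The tropomyosins are coiled-coil proteins that lie along the actin filament and set which proteins can bind it. TPM1 (ENSG00000140416, chromosome 15, 63042632 to 63071915) stood at 22.8 and 22.2 FPKM in the FGF2 libraries, against 38.8 and 38.9 FPKM in the NC libraries, with a log2 fold change of -0.73 (-0.77 to -0.69). The read sets gave -0.68 and -0.79, and 595 tested genes were as low or lower. Of its 50-base words 20.0% occur in other genes, 14.2% in TPM1-AS, which had 13 counts in FGF2 library 2 and 25 in NC library 2. The gene makes many splice forms of high and low molecular weight, and counts per gene do not part them.

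TPM2 (ENSG00000198467, chromosome 9, 35681992 to 35690121), which encodes beta-tropomyosin, did not share the lower level of TPM1. It stood at 147 and 138 FPKM in the FGF2 libraries and 140.3 and 140.0 FPKM in the NC libraries. Its log2 fold change was 0.06 (0.02 to 0.10), with 0.15 in library 1 and -0.04 in the remaining reads, and its direction could not be read. TPM4 (ENSG00000167460, chromosome 19, 16067021 to 16103005), a tropomyosin gene active in many non-muscle cells, stood at 59.3 and 59.0 FPKM in the FGF2 libraries and 55.6 and 54.3 FPKM in the NC libraries. Its log2 fold change of 0.20 (0.16 to 0.23) lay within the 1.2-fold bound, with 0.18 and 0.22 from the read sets. Over their alternatives the fold changes of TPM1 lay between -0.81 and -0.68 and those of TPM4 between 0.12 and 0.22. These ranges come from the reads of 1 sample per group and show the spread over processing and read sets alone.

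VCL (ENSG00000035403, chromosome 10, 73995193 to 74121363) encodes vinculin, which links talin at integrin adhesions to actin. It stood at 41.0 and 41.9 FPKM in the FGF2 libraries and 50.1 and 49.4 FPKM in the NC libraries, and its log2 fold change of -0.16 (-0.19 to -0.12) was within the 1.2-fold bound. Of its 50-base words 10.5% occur in the neighbouring gene AP3M1. ACTN1 (ENSG00000072110, chromosome 14, 68874143 to 68979440) encodes alpha-actinin 1, the crosslinker of stress fibres. It stood at 118.1 and 118.3 FPKM in the FGF2 libraries and 113 and 114 FPKM in the NC libraries, a log2 fold change of 0.13 (0.11 to 0.15). The attachment and crosslinking genes of the set thus met neither bound.

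ACTA2 (ENSG00000107796, chromosome 10, 88935074 to 88991339), which encodes smooth muscle alpha-actin, the usual mark of myofibroblasts, was hardly detected. FGF2 libraries 1 and 2 held 4 and 20 of its counts and NC libraries 1 and 2 held 8 and 18, or at most 0.244 FPKM. The log2 fold change was 0.21 (-0.78 to 1.22), with -0.81 in library 1 and 0.67 in the remaining reads, so no difference was detectable at this depth. Of its 50-base words 26.0% occur in other genes, among them ACTA2-AS1.

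**Figure D2:**
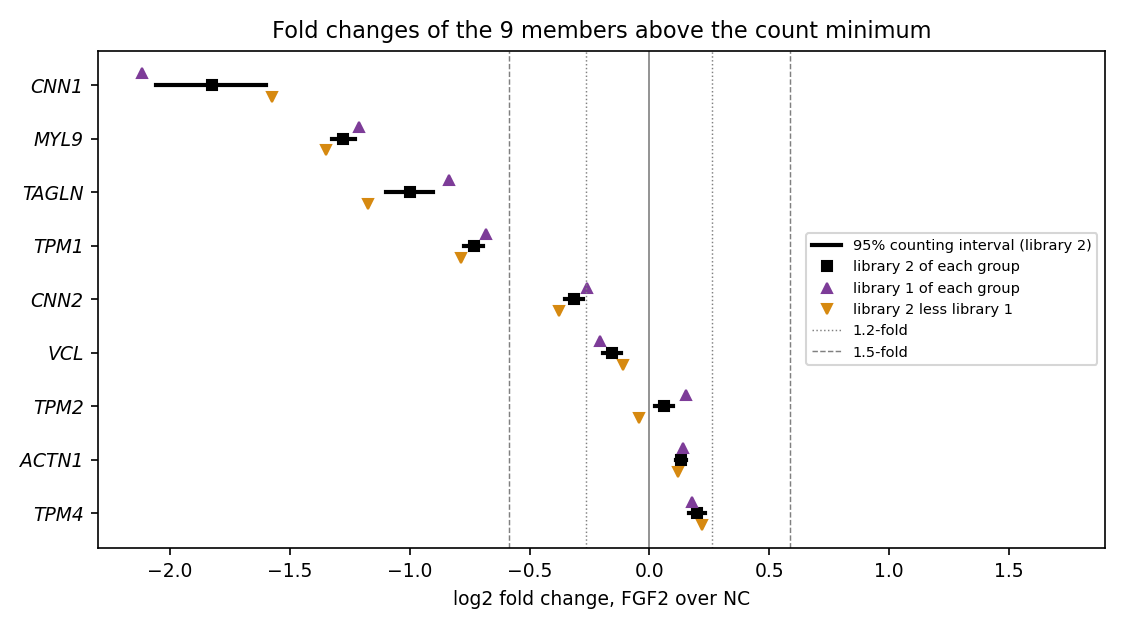
Log2 fold change, FGF2 over NC, of the 9 genes above the count minimum, from library 2 (squares, with the 95% counting interval), library 1 (upward triangles) and library 2 less library 1 (downward triangles), with the 1.2-fold and 1.5-fold bounds as dotted and dashed lines. The markers of CNN1, MYL9, TAGLN and TPM1 all lie beyond 1.5-fold lower, CNN2 straddles the 1.2-fold bound and the other 4 genes lie inside it.

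Levels per length, with the exons of all splice forms merged, were next set beside those of the closest relatives of each gene. MYL9 made up 22.1% and 21.7% of the summed FPKM of the regulatory light chain genes MYL9, MYL12A and MYL12B in the FGF2 libraries, against 38.8% and 39.0% in the NC libraries. MYL12B, which encodes the main non-muscle form, held 63.9% and 65.3% in the FGF2 libraries and 51.3% and 51.6% in the NC libraries. The summed FPKM of the 3 genes was 303 in FGF2 library 2 and 433 in NC library 2, and MYL12B (log2 fold change -0.09) and MYL12A (0.03) met neither bound.

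CNN1 was a small part of the calponin genes, at 1.05% and 1.28% in the FGF2 libraries and 4.15% and 4.03% in the NC libraries. CNN3, the third calponin gene, had a log2 fold change of 0.06. TAGLN held 3.47% and 3.14% of the transgelin pair in the FGF2 libraries, against 5.13% and 5.17% in the NC libraries, the rest being TAGLN2, a form of many cell types, at -0.25. Thus within both families the smooth-muscle-type gene was the minor form by FPKM and had the lower fold change.

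TPM1 held 6.98% and 6.93% of the FPKM of TPM1 to TPM4 in the FGF2 libraries, against 12.1% and 12.2% in the NC libraries. TPM3 held 29.7% and 31.4% in the FGF2 libraries, against 26.8% and 27.0% in the NC libraries, and its log2 fold change of 0.30 from library 2 was 0.26 from library 1, short of the bound. The summed tropomyosin FPKM was 319.7 in FGF2 library 2 and 319.6 in NC library 2, so a lower TPM1 stood beside an even sum. That sum is scaled by the library total, while fold changes here lie higher by a log2 shift of 0.08. The shares also depend on merged exon length, 12876 bases for TPM1 and 3248 for TPM2. In NC library 2 TPM1 had 13700 counts and TPM2 12426. ACTN1 held 40.6% and 41.6% of the non-muscle alpha-actinin pair in the FGF2 libraries and 38.1% and 38.3% in the NC libraries, with ACTN4 at -0.07. The cytoplasmic actin genes ACTB and ACTG1 stood at -0.17 and -0.23. Of 16 listed relatives 10 were measured, and 0 of them were called in either direction, with a median of -0.08. Of all tested genes 13.7% were lower and 12.2% higher by the main rule. Scaling by the total alone gave 1 relative lower, and log2(FPKM + 1) gave 2 lower. The remaining reads alone gave 2 lower and 1 higher, and the mean of both libraries gave 1 lower and 1 higher. In those last settings a single ratio had to meet the bound, a looser rule.

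**Figure D3:**
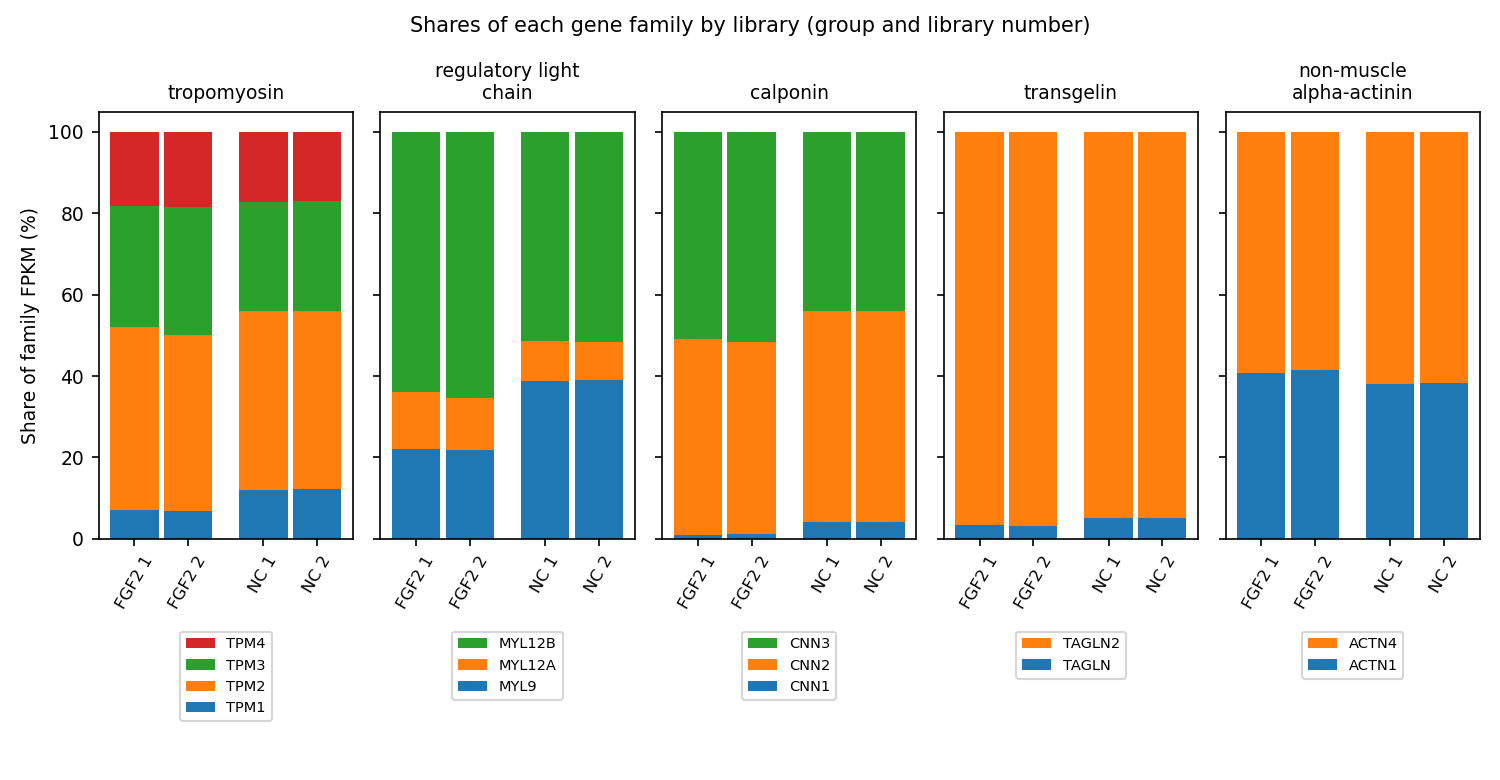
Share of each gene in the summed FPKM of its family (percent), stacked for FGF2 libraries 1 and 2 (left) and NC libraries 1 and 2 (right), in 5 families. The MYL9, TPM1, CNN1 and TAGLN segments are smaller in both FGF2 libraries than in both NC libraries.

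Because SRF acts through CArG boxes, the promoters of the set were searched for this element in RefSeq windows of 300 bases (250 before and 50 after each annotated start, GRCh38.p14). The CArG box was searched by its strict consensus, which reads the same on both strands. It was present in 1.29% of all 35116 windows. Of the 10 genes 8 have windows, 15 in all, and 3 of these windows hold the element, those of CNN2, TPM4 and ACTN1. TAGLN and MYL9 have no entry. The windows below are shown to set the genes with a match beside CNN1, which had the lowest fold change and has no match, and capitals mark the CArG box.
CNN1, chr19:11538601-11538900, plus strand: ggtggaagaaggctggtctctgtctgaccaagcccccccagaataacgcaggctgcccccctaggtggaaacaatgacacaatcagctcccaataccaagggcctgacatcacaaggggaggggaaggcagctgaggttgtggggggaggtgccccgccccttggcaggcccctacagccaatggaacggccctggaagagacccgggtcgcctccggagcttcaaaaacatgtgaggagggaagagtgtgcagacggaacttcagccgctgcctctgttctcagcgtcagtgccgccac
CNN2, chr19:1026358-1026657, plus strand: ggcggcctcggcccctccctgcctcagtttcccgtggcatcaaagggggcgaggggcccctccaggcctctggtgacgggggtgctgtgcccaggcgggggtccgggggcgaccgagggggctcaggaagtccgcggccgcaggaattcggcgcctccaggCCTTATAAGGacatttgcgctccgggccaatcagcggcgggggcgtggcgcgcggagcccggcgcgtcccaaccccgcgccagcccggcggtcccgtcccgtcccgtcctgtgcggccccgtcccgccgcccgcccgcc
TPM4, chr19:16067288-16067587, plus strand: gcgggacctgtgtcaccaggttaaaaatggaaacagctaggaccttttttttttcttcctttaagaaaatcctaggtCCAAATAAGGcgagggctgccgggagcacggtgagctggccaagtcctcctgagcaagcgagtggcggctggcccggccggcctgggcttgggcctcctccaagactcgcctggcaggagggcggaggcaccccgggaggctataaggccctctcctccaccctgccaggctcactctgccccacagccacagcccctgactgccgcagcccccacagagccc
ACTN1, chr14:68977517-68977816, minus strand: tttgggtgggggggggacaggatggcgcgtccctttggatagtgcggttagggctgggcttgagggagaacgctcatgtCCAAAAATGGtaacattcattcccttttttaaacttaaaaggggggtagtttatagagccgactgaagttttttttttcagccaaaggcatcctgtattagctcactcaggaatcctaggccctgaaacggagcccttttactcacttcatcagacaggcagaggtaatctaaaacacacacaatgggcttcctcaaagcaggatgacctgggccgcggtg
The element begins 89 bases before the start of CNN2, 173 before that of TPM4 and 171 before that of ACTN1. TPM4 has 3 annotated starts and ACTN1 has 4, each with the element at 1 of them, and the data do not show which start these cells use. The genes with a match were CNN2, TPM4 and ACTN1, at log2 fold changes of -0.31, 0.20 and 0.13. CNN1 and TPM1, the called genes with a window, had no match in it. TPM2 (0.06), VCL (-0.16) and ACTA2, which were not called, had no match either. The only TPM1 window, 63048239 to 63048538, lies inside the gene, which begins at 63042632, so sequence at that start was not searched. A match is a run of letters and not a measured binding site, and elements outside the windows or with another letter were not counted.

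SRF itself stood at 44.3 and 44.0 FPKM in the FGF2 libraries and 43.9 and 45.3 FPKM in the NC libraries, a log2 fold change of 0.04 (-0.02 to 0.09). Among 7 measured genes of SRF and its cofactors, 1 was higher and 1 lower, or 2 lower with scaling by the total alone. Of all tested genes 12.2% were higher and 13.7% lower, or 17.6% lower with scaling by the total alone. ELK3, a ternary complex factor gene, was higher at 26.4 FPKM in FGF2 library 2 against 8.90 FPKM in NC library 2 (1.65, 1.55 to 1.74). MRTFB, which encodes a cofactor that senses actin, was lower at 2.36 FPKM in FGF2 library 2 against 3.50 FPKM in NC library 2 (-0.49, -0.60 to -0.38). MRTFA stood at -0.32, with -0.18 in library 1 and -0.46 in the remaining reads, and was not called. MYOCD, the smooth muscle cofactor, had 0 counts in both FGF2 libraries and 5 and 6 in the NC libraries.

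Other known targets of the actin-MRTF-SRF route went both ways. Of 29 measured, 7 were lower, 4 were higher and 18 were neither, with a median log2 fold change of -0.16, while 13.7% of all tested genes were lower and 12.2% higher. At 1.5-fold 3 were lower and 1 higher, beside 5.36% and 3.06% of all tested genes. With log2(FPKM + 1) 12 were lower and 3 higher, and no share of all tested genes was taken for that rule. TUFT1, which encodes tuftelin, was lowest at -1.04 (-1.12 to -0.95), followed by FILIP1L at -0.73 and the caldesmon gene CALD1, whose product binds actin and myosin, at -0.64 (-0.68 to -0.59). SMTN, which encodes smoothelin, a protein of contractile smooth muscle, was highest at 1.29 (1.21 to 1.38), on 12.7 FPKM in FGF2 library 2 and 5.48 FPKM in NC library 2. PDLIM5 at 0.56 and the filamin gene FLNC at 0.46 were also higher. ACTG2, the enteric smooth muscle actin gene, was under the count minimum with 0 counts in both FGF2 libraries and 15 and 21 in the NC libraries. It was named after its values were seen.

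Of 7 measured immediate early genes that SRF drives with ternary complex factors, 4 were higher and 1 lower, with a median of 0.56, beside 12.2% higher and 13.7% lower among all tested genes. At 1.5-fold 2 were higher and 0 lower, beside 3.06% and 5.36% of all tested genes. With log2(FPKM + 1) the median was 0.25. It was 0.44 in library 1 and 0.61 in the remaining reads. The median of 0.56 is the value of FOS, which averaged 50 counts per read set, the minimum itself. FOSB was higher at 1.39 (0.96 to 1.84) on only 158 counts in FGF2 library 2 and 63 in NC library 2, with 0.87 in library 1 and 2.11 in the remaining reads. Also higher were IER2 at 0.93 and the survival gene MCL1 at 0.61. EGR1 was lower at -0.73 (-0.84 to -0.61). Of the IER2 words 27.7% occur in another gene. The difference between these genes and the contractile set was not tested.

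Among genes of actin crosslinking and stress fibre proteins, 5 of 24 were lower and 3 higher (median -0.05). Of all tested genes 13.7% were lower and 12.2% higher. At 1.5-fold 4 of the 24 were lower and 0 higher, beside 5.36% and 3.06% of all tested genes. PALLD, which encodes the stress fibre protein palladin, was lower at -1.08 (-1.15 to -1.01), SYNPO at -0.89 and PDLIM1 at -0.77. MYPN, the gene of a palladin relative, was higher at 0.70, and FLNC, PDLIM5 and CALD1 stand in this list too.

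The adhesion plaque, where vinculin sits, had 6 of 21 genes higher, 3 lower and a median of 0.12. At 1.5-fold 2 were higher and 2 lower, beside 3.06% and 5.36% of all tested genes. With log2(FPKM + 1) 4 were higher and 4 lower, with no share of all tested genes taken for that rule. TES was higher at 1.03 (0.80 to 1.28), the paxillin gene PXN at 0.74 (0.69 to 0.79) and the kindlin gene FERMT1 at 0.62. LIMS2, which encodes a partner of integrin-linked kinase, was lower at 0.798 FPKM in FGF2 library 2 against 3.85 FPKM in NC library 2 (-2.19, -2.43 to -1.96), the tensin gene TNS3 at -1.17 and the talin gene TLN2 at -0.45. Among 34 genes of filament turnover 6 were lower and 3 higher (median 0.03), including the cofilin phosphatase gene SSH3 at -1.24, the gelsolin gene GSN at -0.81 and CAP2 at -0.47. ARPC2 (0.40), a subunit gene of the branching Arp2/3 complex, the profilin gene PFN1 (0.39) and CORO1C (0.32) were higher. Among all tested genes, as given above, 13.7% were lower and 12.2% higher. The turnover counts were 9 lower and 0 higher with scaling by the total alone. In library 1 they were 8 lower and 5 higher, and in the remaining reads 9 lower and 7 higher. Those last counts asked only that a single ratio meet the bound, a looser rule, so they do not show the part of the reads.

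**Figure D4:**
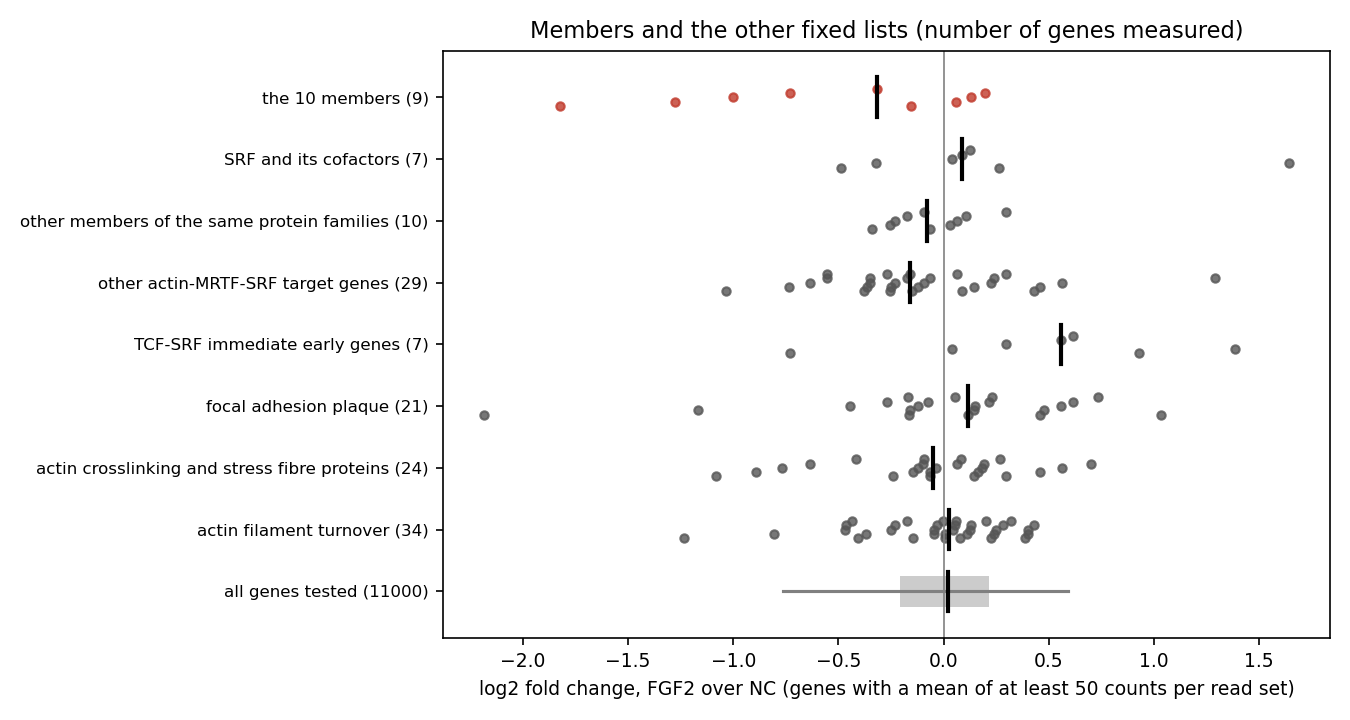
Log2 fold change, FGF2 over NC, of each measured gene of the 10-gene set (red) and of 7 other lists (grey), with the list median as a black bar and all 11000 tested genes below as a box of the 25th to 75th percentile and a line of the 5th to 95th. The set has the lowest median of these lists, at -0.31, and the immediate early list the highest, at 0.56.

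Markers of the labelled cell type and of other cells were read in the same libraries. KRT8 and KRT18, keratins of simple epithelia, stood at 191 and 199 FPKM in FGF2 library 2 and 270.3 and 193 FPKM in NC library 2. KRT19, another keratin of simple epithelia, stood at 48.5 and 47.6 FPKM in the FGF2 libraries, against 25.4 and 27.3 FPKM in the NC libraries. It was higher at 0.88 (0.80 to 0.97), also by the 1.5-fold bound. KRT8 was lower at -0.42, though not by 1.5-fold, so 1 of the 3 measured epithelial markers was called in each direction. The 5 epithelial markers summed to 444 and 438 FPKM in the FGF2 libraries and 485 and 492 FPKM in the NC libraries. The epithelial genes EPCAM and CDH1 were at or below 1.19 and 0.196 FPKM in all 4 libraries. The low EPCAM goes against the label, although the 3 keratin genes were expressed. The 6 smooth muscle markers together summed to 0.0816 and 0.123 FPKM in the FGF2 libraries and 0.467 and 0.389 FPKM in the NC libraries, and DES, MYOCD and ACTG2 were at 0 in both FGF2 libraries. These 6 smooth muscle markers were thus near 0, while the smoothelin gene SMTN, given above, was expressed.

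Of the 8 fibroblast markers 3 were measured, and COL1A1 (-0.72) and PDGFRB (-1.66) were lower in the FGF2 sample while THY1 stood at 0.01. COL1A1 stood at 59.4 FPKM in FGF2 library 2 and 104 FPKM in NC library 2, and PDGFRB at 6.29 FPKM in FGF2 library 2 and 21.0 FPKM in NC library 2. The summed fibroblast FPKM was 84.3 and 83.8 in the FGF2 libraries, against 141 and 145 in the NC libraries, with COL1A2 at 0 in all 4. Both measured pericyte markers of 4, CSPG4 (-0.60) and NOTCH3 (-1.001), were lower as well. The pericyte list summed to 4.42 and 4.62 FPKM in the FGF2 libraries and 7.13 and 7.59 FPKM in the NC libraries, with KCNJ8 at 0 throughout. The part of these genes in the lower CNN1, MYL9, TAGLN and TPM1 levels was not tested. None of the 4 endothelial and 4 blood markers reached the count minimum. The endothelial list summed to 0.288 and 0.322 FPKM in the FGF2 libraries and 0.361 and 0.308 FPKM in the NC libraries.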

How the data were processed

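Each of the 4 libraries had 1 table with raw read counts and FPKM values deposited by the authors. The submitters' processing notes name HISAT2, HTSeq 0.13.5 and GRCh38. The sources used here do not state the annotation or how reads shared by genes were counted. Libraries were made with an NEBNext Ultra kit, per the labels' protocols. All 51103 identifiers are in GENCODE 29, and the lengths implied by the deposited FPKM equalled its merged exon lengths for all 10 genes, so its coordinates are used.

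The edgeR test planned for separate libraries was not run, since the libraries of a group share reads. Counts were scaled by TMM (edgeR 4.0.16, R 4.3.3) over 14043 genes kept by filterByExpr, and 0.5 was added before log2 ratios were taken. Intervals are exact Clopper-Pearson intervals at 95%. Exon sharing was measured as 50-base words on either strand of GENCODE 29 transcripts. Scripts were tested on simulated data. One of the gene lists is not reported here. Every member was named, as were SRF, MRTFA, MRTFB, ACTB and ACTG1. From each other list up to 3 called genes per direction with the largest fold change were named. Relatives, markers, FOS and ACTG2 given beside these were taken after their values were seen. Members and lists were chosen with earlier results of these data known.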

Additional observations from a re-analysis of the deposited data

How the results depend on the processing

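The counts of 4 genes lower and 0 higher gave 4 to 5 lower and 0 higher under every alternative tried: total count or DESeq2 size factors for scaling, library 1, the other reads of library 2 or the mean of both libraries, log2(FPKM + 1), a 1.5-fold bound, and a minimum of 10 counts or none. The fifth gene was CNN2, taken with total scaling, FPKM, the other reads of library 2 and the mean of both libraries. Library 1, the other reads and the mean were each called by a single ratio, a looser rule than the main rule. The median stayed between -0.40 and -0.24. All alternatives reuse the reads of 1 sample per group and show the spread over processing and read sets alone. Of 60 member values under alternatives, 31 left their counting interval and 5 changed sign, those of ACTA2 and TPM2, which were not called. The median of filament turnover was -0.05 with total scaling and with FPKM. That scaling made 932 tested genes higher and 1933 lower, in place of 1343 and 1509, at a log2 shift of 0.08. Of 182 counts and medians of the other lists, 59 moved by more than 1.5 times or beyond the spread between read sets. No paired analysis was possible because the libraries of each group were counted as 1 sample, so no result comes from a test. Leaving out a library was read as using library 1 or the other reads of library 2 alone. Counting depth limits ACTA2 and CNN1 most.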
